A study of Mus musculus with 8 samples.

Results

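Maoa, Pdlim5, Mamdc2, Ide and Dmpk are 5 of the 6287 genes in the deposited table. They were picked by name because wild-type and PAD4-/- macrophages lay far apart in them, relative to the spread inside each group. They were therefore chosen from the FPKM values of this very contrast, and the difference between genotypes in these genes is given here as a description, with no test. The cells were primary macrophages grown from bone marrow, in 4 libraries from wild-type mice and 4 from mice lacking PAD4, an enzyme that converts arginine in proteins to citrulline. All titles carry the word "con", which the labels do not explain, and no stimulus is named for either group. The sources used here do not give strain, backcross, age, sex or the design of the knockout allele. The submitters call the samples independent, but no label ties an animal or culture to a library, so p-values measure spread between libraries that may be partly technical. By its title the series concerns macrophage migration, and the comparison asks what differs when PAD4 is missing. Padi4 was not analysed here, and its loss was therefore taken from the labels alone.

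These genes do unrelated jobs. Maoa encodes monoamine oxidase A, a flavin enzyme of the outer mitochondrial membrane that breaks down serotonin, noradrenaline and dopamine and releases hydrogen peroxide and an aldehyde; in human monocytes it is known as a gene strongly induced by interleukin 4 and interleukin 13. Ide encodes insulin-degrading enzyme, a zinc metalloprotease that cleaves insulin, glucagon and amyloid beta. Pdlim5 encodes a scaffold with a PDZ domain and LIM domains that binds alpha-actinin on actin filaments and protein kinase C. Mamdc2 encodes a secreted proteoglycan built of MAM domains, modules found in adhesion proteins. Dmpk encodes a serine/threonine kinase, best known because a CTG repeat expansion in the untranslated tail of human DMPK causes myotonic dystrophy.

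The start-site regions of Maoa, Pdlim5 and Dmpk are shown because these are the members for which the RefSeq start used for the window lay within 20 bases of the start of the gene in GENCODE. Each window, from RefSeq on GRCm38.p6, runs from 250 bases before the start to 50 bases after it and is written 5′ to 3′ on the strand of the gene. Capitals mark GC boxes (GGGCGG on either strand) and CCAAT boxes (CCAAT on either strand); TATAAA was searched in the same way and was in none of these windows. Marked motifs do not overlap each other. Maoa lies at chrX:16619448-16619747 on the plus strand, Pdlim5 at chr3:142395647-142395946 on the minus strand and Dmpk at chr7:19083608-19083907 on the plus strand.
Maoa: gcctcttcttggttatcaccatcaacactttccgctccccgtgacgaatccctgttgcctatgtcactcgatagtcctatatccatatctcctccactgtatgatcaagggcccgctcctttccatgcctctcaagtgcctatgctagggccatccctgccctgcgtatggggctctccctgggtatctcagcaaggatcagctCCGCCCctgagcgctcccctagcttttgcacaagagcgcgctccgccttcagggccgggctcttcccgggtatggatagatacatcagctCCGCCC
Pdlim5: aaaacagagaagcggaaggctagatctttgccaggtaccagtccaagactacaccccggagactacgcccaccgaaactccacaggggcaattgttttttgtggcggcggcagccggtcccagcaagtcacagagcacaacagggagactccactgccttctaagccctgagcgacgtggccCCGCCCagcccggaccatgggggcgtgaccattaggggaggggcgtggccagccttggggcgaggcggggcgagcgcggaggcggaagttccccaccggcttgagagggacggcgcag
Dmpk: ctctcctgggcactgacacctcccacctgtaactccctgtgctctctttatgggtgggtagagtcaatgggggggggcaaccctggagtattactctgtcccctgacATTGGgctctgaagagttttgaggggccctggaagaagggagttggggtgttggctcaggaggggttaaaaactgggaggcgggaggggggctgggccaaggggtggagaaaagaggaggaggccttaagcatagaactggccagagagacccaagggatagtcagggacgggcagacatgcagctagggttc

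Sequence features differed among these windows. The Maoa window held 2 GC boxes and the Pdlim5 window 1, while the Dmpk window held a single CCAAT box and no GC box. Of 32851 windows of this length in the RefSeq table, 35.7% held a GC box, 37.4% a CCAAT box and 13.6% TATAAA, so each of these motifs is common. G and C made up 57.7% of the Maoa window, 64.7% of the Pdlim5 window and 58.3% of the Dmpk window, against a median of 52.7% over all windows. These matches describe letters and do not show binding.

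Maoa was at 20.59, 20.81, 22.41 and 20.26 FPKM in wild-type replicates 1 to 4 and at 4.94, 4.78, 5.95 and 6.21 FPKM in knockout replicates 1 to 4. Every knockout library lay far below every wild-type library, and the highest knockout value was 0.307 of the lowest wild-type value. The mean was 21.0 ± 0.956 FPKM (SD, n = 4) in wild type and 5.47 ± 0.715 FPKM (SD, n = 4) in the knockout, which is 0.260 of the former. FPKM, a fragment count divided by transcript length and by sequencing depth, is the authors' unit, and differences are given below in mean log2(FPKM + 1), knockout minus wild type, a scale that understates changes of low genes. On that scale the difference of Maoa was -1.77, the lowest of 5674 genes with a mean of at least 1 FPKM. In bulk RNA, fewer cells that express a gene and less RNA per cell cannot be told apart.

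Ide, the protease gene, was the most even member. It was at 34.13, 32.85, 33.93 and 33.66 FPKM in wild type and at 17.41, 17.37, 18.7 and 17.57 FPKM in the knockout, so that no 2 wild-type libraries differed by more than a few percent and 3 of the 4 knockout libraries were nearly alike. Means were 33.6 ± 0.562 and 17.8 ± 0.631 FPKM (SD, n = 4 each), a ratio of 0.528. Single knockout libraries lay at 0.516 to 0.556 of the wild-type mean. Gene copy number was not measured, and the strain of either group is not given. Copy-number differences among mice, between or within strains, therefore cannot be told apart from a change in expression. The difference of Ide, -0.89, was only the 21st lowest, but divided by its within-group SD of 0.038 on the log2 scale it ranked 1st of the 5674 genes, whose median SD was 0.090. The members were picked for distance relative to spread, so this rank restates that choice and is no separate result. The within-group SD was 0.121 for Maoa, 0.102 for Pdlim5 and 0.149 for Dmpk, all above the median, and 0.074 for Mamdc2.

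Pdlim5, the actin-filament scaffold gene, was at 33.42, 32.96, 32.62 and 27.22 FPKM in wild type and at 11.2, 10.25, 11.08 and 10.85 FPKM in the knockout. Wild-type replicate 4 was low within its group, yet the groups stayed far apart, and the highest knockout value was 0.412 of it. The means of 31.6 ± 2.91 and 10.8 ± 0.422 FPKM (SD, n = 4 each) gave a ratio of 0.344, and the difference of -1.45 was the 2nd lowest. In the knockout its SD was 3.90% of its mean, against 9.22% in wild type.

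Mamdc2, the proteoglycan gene, was the least abundant member, at 3.29, 3.26, 3.06 and 3.17 FPKM in wild type and at 1.03, 0.72, 0.87 and 0.86 FPKM in the knockout. The groups did not overlap, and the level of 0.87 ± 0.127 FPKM (SD, n = 4) in the knockout was 0.272 of the 3.20 ± 0.103 FPKM (SD, n = 4) in wild type. It passed the filter of a mean of at least 1 FPKM through its wild-type values, since its knockout mean lies below 1. The difference was -1.17 with 1 FPKM added before the logarithm but -1.77 with 0.1 FPKM added, the value most affected by that choice among the members.

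Dmpk, the kinase gene, was the only member higher in the knockout. It was at 5.56, 4.82, 4.8 and 4.87 FPKM in wild type and at 10.8, 11.97, 15.14 and 13.13 FPKM in the knockout, where replicates 3 and 4 were the higher pair. The lowest knockout value was 1.94 times the highest wild-type value. Means of 5.01 ± 0.366 and 12.8 ± 1.85 FPKM (SD, n = 4 each) gave a ratio of 2.55 and a difference of 1.19, the 7th highest of the genes tested.

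**Figure D1:**
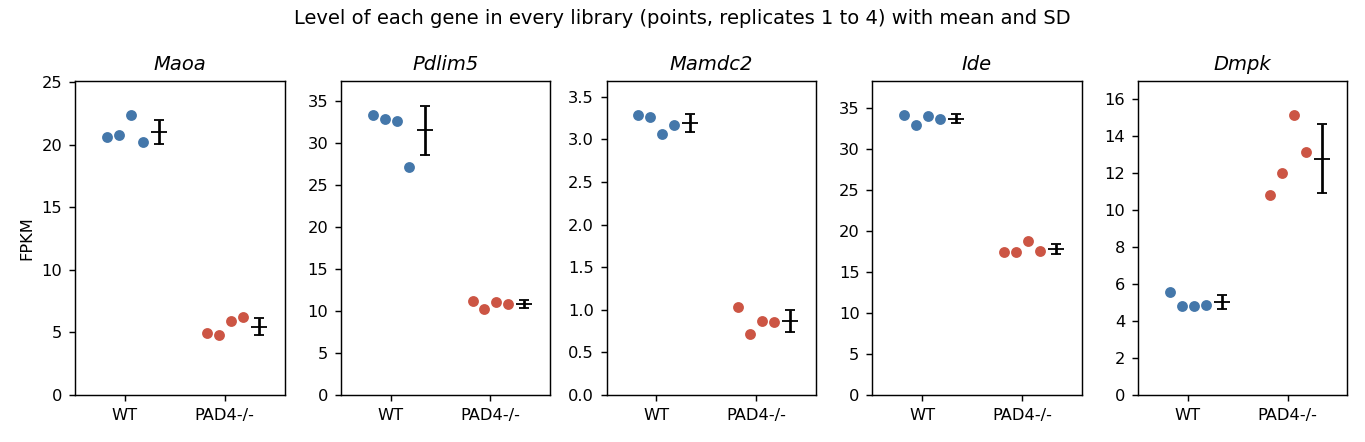
FPKM of Maoa, Pdlim5, Mamdc2, Ide and Dmpk in each of 4 wild-type (WT, blue) and 4 PAD4-/- (red) libraries, one panel per gene with its own axis from 0. Points run from replicate 1 to 4 within a group, and bars give the mean and SD; in no panel do the groups overlap, and Dmpk alone is higher in PAD4-/-.

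All 5 members passed the filter, all 5 would be called at an adjusted p below 0.05 in the limma fit over all genes, and in all 5 the groups did not overlap. Over the 5674 genes tested, 27.7% were called and 31.1% had groups that did not overlap, with 21.1% called higher and 6.61% called lower. Because the members were chosen on this contrast, nothing is read from their counts. In the authors' deposited table the log2 fold changes were -2.03 for Maoa, -1.65 for Pdlim5, -1.96 for Mamdc2, -1.01 for Ide and 1.26 for Dmpk.

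**Figure D2:**
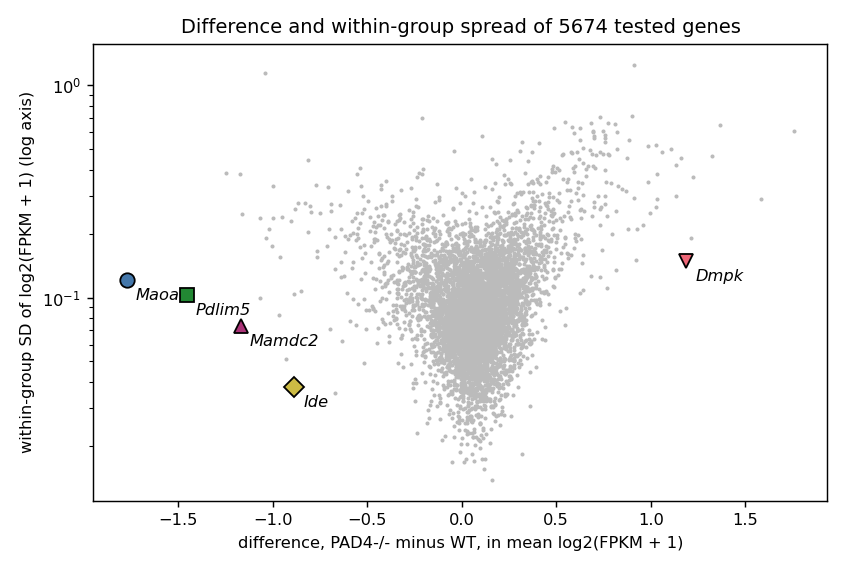
Each point is 1 of 5674 tested genes, with the difference in mean log2(FPKM + 1) between PAD4-/- and WT on the horizontal axis and the within-group SD on a logarithmic vertical axis. Maoa, Pdlim5, Mamdc2 and Ide lie at the left edge, with Ide lowest of them at an SD of 0.038, and Dmpk lies at the right.

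The knockout libraries were not alike, and the members did not share one pattern across them. The first principal component held 70.6% of the variance and placed wild type at -9.02 to -8.15. On it, the first pair of knockout libraries (replicates 1 and 2) scored -0.91 and 1.42, and the second pair (replicates 3 and 4) scored 17.7 and 16.1. Relative to the wild-type mean, Maoa was at 0.235 and 0.227 in the first pair and higher, 0.283 and 0.296, in the second, which was thus nearer to wild type. Dmpk was at 2.16 and 2.39 times its wild-type mean in the first pair and at 3.02 and 2.62 times in the second, which was farther from wild type. Ide was at 0.518 and 0.516 in the first pair and slightly higher, 0.556 and 0.522, in the second. The pairs were interleaved for Pdlim5, which stayed between 0.325 and 0.355, and for Mamdc2, between 0.225 and 0.322. With knockout replicates 3 and 4 both left out, the differences were -1.91 for Maoa, -1.47 for Pdlim5, -1.17 for Mamdc2, -0.91 for Ide and 1.04 for Dmpk.

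**Figure D3:**
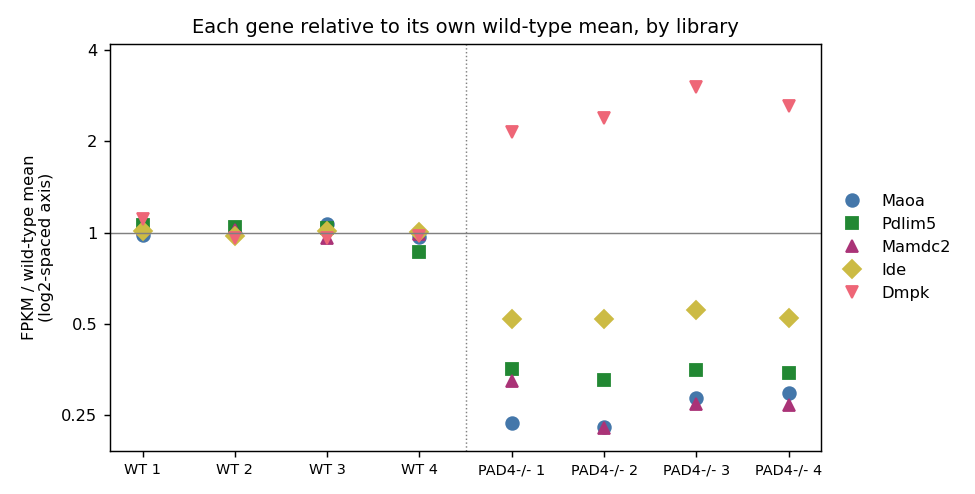
FPKM divided by each gene's own wild-type mean, on a log2-spaced axis, for the 8 libraries in order. Ide holds near 0.53 and Pdlim5 near 0.34 in all 4 PAD4-/- libraries, while Dmpk spans 2.16 to 3.02.

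Because FPKM is scaled to transcript length, levels of the members can be ordered within a library. In wild type the order of mean FPKM was Ide, Pdlim5, Maoa, Dmpk and Mamdc2, and the ranges of the neighbours Ide and Pdlim5 overlapped. In the knockout the order was Ide, Dmpk, Pdlim5, Maoa and Mamdc2, with overlapping ranges for Dmpk and Pdlim5. Maoa stood above 65.0% of listed genes by its wild-type mean and above 30.8% by its knockout mean, and Dmpk moved from 31.2% to 50.6%.

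The members are spread over 4 chromosomes, and none lies on chromosome 4, where RefSeq places Padi4. On GRCm38, RefSeq places Maoa on chromosome X (16619698 to 16687812), Pdlim5 on chromosome 3 (142239585 to 142395719), Mamdc2 on chromosome 19 (23302609 to 23448497), Ide on chromosome 19 (37268743 to 37334544) and Dmpk on chromosome 7 (19083646 to 19093821). Of these, 4 are long genes, spanning 65.8 kb for Ide to 156.1 kb for Pdlim5, against a median span of 25.5 kb over tested genes, whereas Dmpk spans 10.2 kb. GENCODE M21 annotates 1 transcript for Maoa and 18 for Dmpk, so the single FPKM of a gene can merge several transcripts. Genes annotated inside Mamdc2, Ide and Dmpk (a lincRNA, processed pseudogenes and a miRNA) touch none of their exons.

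Among tested genes near the 4 lower members, Klf9 alone was called lower. RefSeq places 76 protein-coding genes within 500 kb of the members, 10 of them near Ide and 46 near Dmpk. Of the genes there, only 24 were listed and 18 tested. Genes that were not listed can lie nearer to a member than those named below. Among those tested, 6 were called higher and 1 lower, 38.9% against 27.7% of all genes, with a median difference of 0.24 against 0.08. The tested gene nearest to Ide was March5, an E3 ubiquitin ligase gene of mitochondria 44.3 kb away. March5 was at 53.4 ± 1.78 FPKM in wild type and 64.8 ± 9.43 FPKM in the knockout (limma adjusted p = 0.0516), and was called without knockout replicate 1 or 2 (adjusted p = 0.0250 and 0.0181). On the other side Hhex, which encodes a homeobox factor, was higher at a ratio of 1.23 (limma adjusted p = 0.0260), as was Exoc6, a subunit of the exocyst, at 1.23 (0.0412). Tnks2, on the same side of Ide as March5, had a ratio of 1.06. Of the 3 tested genes near Mamdc2, Klf9 fell. Klf9, 134.0 kb away, encodes a Krüppel-like transcription factor and went from 9.18 ± 0.349 to 5.93 ± 1.35 FPKM (limma log2 difference -0.57, SE 0.12, adjusted p = 0.00914); it was lower in the second knockout pair (4.53 and 5.16 FPKM) than in the first (7.54 and 6.49 FPKM). Ptar1 on the other side of Mamdc2 had a ratio of 1.07.

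None of the 6 tested genes near Pdlim5 was called. They include 4 guanylate-binding protein genes, interferon-inducible GTPases of similar sequence between which the authors' counting could divide reads. The nearest, Gbp5, spanned 8.45 to 13.73 FPKM in wild type, with 11.94 and 10.95 FPKM in the first knockout pair but 36.27 and 33.71 FPKM in the second (limma adjusted p = 0.185). Gbp2 spanned 14.74 to 19.42 FPKM in wild type. It lay below that range in the first pair (11.12 and 11.11 FPKM) and above it in the second (32.46 and 28.65 FPKM). Near Dmpk, 4 of 5 tested genes were called higher, Vasp, an actin-polymerization factor, with the largest ratio among them (1.76, limma adjusted p = 0.0199). Vasp spanned 37.85 to 40.57 FPKM in wild type, and all knockout libraries lay above that, with 50.05 and 52.99 FPKM in the first pair but 87.09 and 85.14 FPKM in the second. Clasrp, Eml2 and Opa3 had ratios of 1.37, 1.27 and 1.11. Six5, a homeobox gene 0.723 kb beyond Dmpk, was listed at 0.02 to 0.11 FPKM in wild type and 0.13 to 0.23 FPKM in the knockout, and was below the filter. No gene near Maoa was tested, and Maob was not analysed here.

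**Figure D4:**
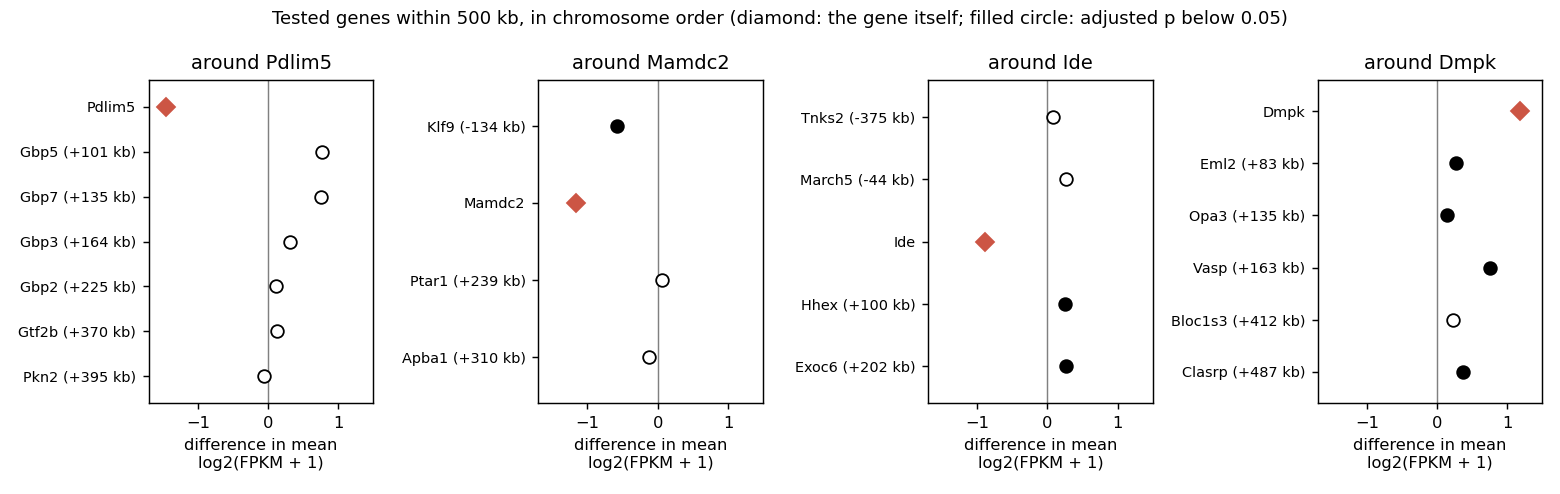
Difference in mean log2(FPKM + 1), PAD4-/- minus WT, for tested genes within 500 kb of Pdlim5, Mamdc2, Ide and Dmpk, in chromosome order, with the distance in kb. The diamond is the gene itself. Around Ide all 4 tested genes lie above 0, and around Mamdc2 Klf9 lies below 0.

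Several of these neighbouring calls were lost when 1 library was left out, while the differences kept their direction. Leaving out 1 library gave log2 differences of 0.20 to 0.33 for Exoc6 against 0.26 with all libraries, 0.22 to 0.32 for Eml2 against 0.26, and 0.63 to 0.89 for Vasp against 0.76. The calls of Exoc6 and Eml2 were lost on dropping either library of the second knockout pair, or any wild-type library (largest adjusted p of those 0.105 and 0.0819). That of Hhex was lost without wild-type replicate 1, 2 or 3 or knockout replicate 3 or 4 (up to 0.0763), and that of Opa3 without these or knockout replicate 2 (up to 0.115). Vasp was lost without wild-type replicate 1 or 3 (0.0509 and 0.0525) and Clasrp without wild-type replicate 3 (0.0507), and without wild-type replicate 3 none of the 6 higher genes was called. With median-of-ratios scaling, which brought the median of all genes from 0.082 to 0.005, 2 neighbours were called higher instead of 6, and with both libraries of the second knockout pair left out 1 was. Over the 35 called genes of the neighbourhoods and lists named here and below, 14 lost their call without that pair.

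Genes of amine metabolism differed by small ratios in both directions. Of 7 tested genes that make, break down or clear amines and aldehydes, 3 were higher and 1 lower, with ratios from 0.887 to 1.17 and a median difference of 0.14, against 0.08 over all genes. Aldh9a1, which encodes an aldehyde dehydrogenase that handles amine-derived aldehydes, rose from 38.3 ± 1.01 to 44.7 ± 1.23 FPKM (limma adjusted p = 0.00581). Akr1a1, an aldehyde reductase gene, fell from 1588 ± 27.0 to 1409 ± 28.6 FPKM (limma adjusted p = 0.00844). Hnmt, which inactivates histamine, and Akr1b3, another aldehyde reductase gene, rose to ratios of 1.17 and 1.11 (limma adjusted p = 0.0450 and 0.0375). Of 5 tested flavin amine oxidases and related flavoenzymes, 3 were higher, none lower, with a median difference of 0.23. Pcyox1, which degrades prenylated cysteine, Kdm1a, a histone lysine demethylase gene, and Smox, a spermine oxidase gene, had ratios of 1.18, 1.19 and 1.22 (limma adjusted p = 0.0103, 0.0142 and 0.0368). Calls lost on leaving out 1 library were those of Akr1b3 (wild-type replicates 1, 2 and 3, knockout replicates 3 and 4, up to 0.102), Hnmt (wild-type replicates 1, 3 and 4, knockout replicates 2, 3 and 4, up to 0.108) and Smox (wild-type replicates 1, 2 and 3, knockout replicates 2, 3 and 4, up to 0.0959). With median-of-ratios scaling the calls of Akr1b3, Hnmt, Kdm1a and Smox were lost.

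Among relatives and partners of Pdlim5, 1 LIM domain gene fell. In its PDZ-LIM family, Pdlim7 was the only tested gene and rose from 8.24 ± 0.300 to 11.1 ± 1.52 FPKM (limma adjusted p = 0.0117), and Pdlim1 was below the filter at 0.623 ± 0.205 and 0.515 ± 0.113 FPKM. In the knockout Pdlim5 stood at 10.8 FPKM and Pdlim7 at 11.1 FPKM, where wild type had 31.6 and 8.24 FPKM. Of 6 tested partners and kinases, 2 were higher and none lower (median difference 0.12), but 1 was higher and 1 lower with median-of-ratios scaling. Arhgef6, an exchange factor for Rac and Cdc42, rose from 30.2 ± 1.23 to 38.7 ± 3.38 FPKM (limma adjusted p = 0.00581), and Prkd3, a protein kinase D gene, rose to a ratio of 1.21 (adjusted p = 0.0298). The call of Prkd3 was lost with median-of-ratios scaling, on dropping either library of the second knockout pair, or on dropping any wild-type library (up to 0.0703). Actn1, which encodes alpha-actinin, had a ratio of 0.889 (limma adjusted p = 0.0609). Of 12 other LIM domain genes of adhesions and actin, 1 fell and none rose (median difference -0.05), a count that became 4 lower with median-of-ratios scaling and 1 lower with 2 higher at an equal FPKM sum per library. The gene that fell was Zyx, which encodes the focal adhesion protein zyxin and went from 49.8 ± 1.58 to 39.0 ± 3.33 FPKM (limma adjusted p = 0.00457).

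Proteoglycan genes, the group to which Mamdc2 belongs, moved in both directions. Of 6 tested, 3 fell and 2 rose (median difference -0.11). Gpc1, which encodes the membrane-anchored glypican, was at 14.57, 15.53, 13.52 and 14.83 FPKM in wild type and at 7.89, 8.19, 6.6 and 7.12 FPKM in the knockout, a ratio of 0.510 without overlap (limma log2 difference -0.89, SE 0.069, adjusted p = 7.18e-05). Sdc1, a syndecan gene, fell to a ratio of 0.532 and Cd44, the hyaluronan receptor gene, to 0.668 (limma adjusted p = 0.00300 and 0.00314). Sdc4, another syndecan gene, rose to 1.32, and Srgn, the serglycin gene of secretory granules, to 1.48 (limma adjusted p = 0.00829 and 0.0105). The MAM domain genes tested, Nrp1 and Nrp2, encode neuropilin receptors, and both rose, to ratios of 1.23 and 1.21 (limma adjusted p = 0.00844 and 0.0199). The call of Nrp2 was lost with median-of-ratios scaling and without wild-type replicate 2, 3 or 4 (0.0512, 0.0545 and 0.0543).

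Peptide-degrading peptidases, from the family of Ide and from other families, stayed near their wild-type levels or slightly above. Of 8 tested, 2 were called higher and none lower, ratios ran from 1.00 to 1.15, and the median difference was 0.10. Pitrm1, a mitochondrial member of the same metalloprotease family, was at 18.4 ± 1.09 and 18.4 ± 0.896 FPKM (limma adjusted p = 0.953), and Lnpep and Npepps, aminopeptidase genes, rose to ratios of 1.15 and 1.10 (adjusted p = 0.0205 and 0.0437). Of 15 tested genes of insulin and IGF signalling and amyloid precursor processing, 3 fell and 1 rose (median difference 0.03). Igf2r, which encodes the receptor that carries IGF2 to lysosomes, fell to a ratio of 0.859, Aplp2, a relative of the amyloid precursor, to 0.834, and Psen2, a gamma-secretase subunit, to 0.847 (limma adjusted p = 0.0131, 0.0113 and 0.0234). App, the amyloid precursor gene, rose to 1.11 (limma adjusted p = 0.0145), and Insr, the insulin receptor gene, had a ratio of 1.10 (adjusted p = 0.144). Calls lost on leaving out 1 library were those of Lnpep (knockout replicate 3, 0.0552), Npepps (wild-type replicates 1, 2 and 3, knockout replicates 2, 3 and 4, up to 0.124), Psen2 (wild-type replicates 1, 3 and 4, knockout replicates 3 and 4, up to 0.0658) and App (wild-type replicate 3, 0.0501). With median-of-ratios scaling the calls of Lnpep, Npepps and App were lost.

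Kinases related to Dmpk had ratios of 1.08 to 1.31, against 2.55 for Dmpk. Of 6 tested, 1 was called higher and none lower (median difference 0.12): Stk38l, a kinase gene of the NDR kind, rose from 3.29 ± 0.300 to 4.32 ± 0.164 FPKM (limma adjusted p = 0.00868). Rock1 and Rock2, kinase genes of the cytoskeleton, had ratios of 1.08 and 1.09 (limma adjusted p = 0.121 and 0.110), and Rock2 was called once knockout replicates 3 and 4 were both left out (0.0389). Of 8 tested substrates, partners and CUG-repeat RNA-binding proteins, 2 rose and 1 fell (median difference 0.07). Ppp1r12c, a myosin phosphatase subunit, rose to a ratio of 1.17, and Myl6, a myosin light chain gene, fell to 0.895 (limma adjusted p = 0.0126 and 0.0242). No gene of this list was called higher under median-of-ratios scaling, and the call of Myl6 was lost without wild-type replicate 1, 3 or 4 or knockout replicate 3 (up to 0.0735). Mbnl1, which encodes the muscleblind protein bound by expanded CUG repeats in human disease, had a ratio of 1.11 (limma adjusted p = 0.0592). Counting each gene once over all these lists, 28 of 76 tested genes were called, 36.8% against the 27.7% of all genes.

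**Figure D5:**
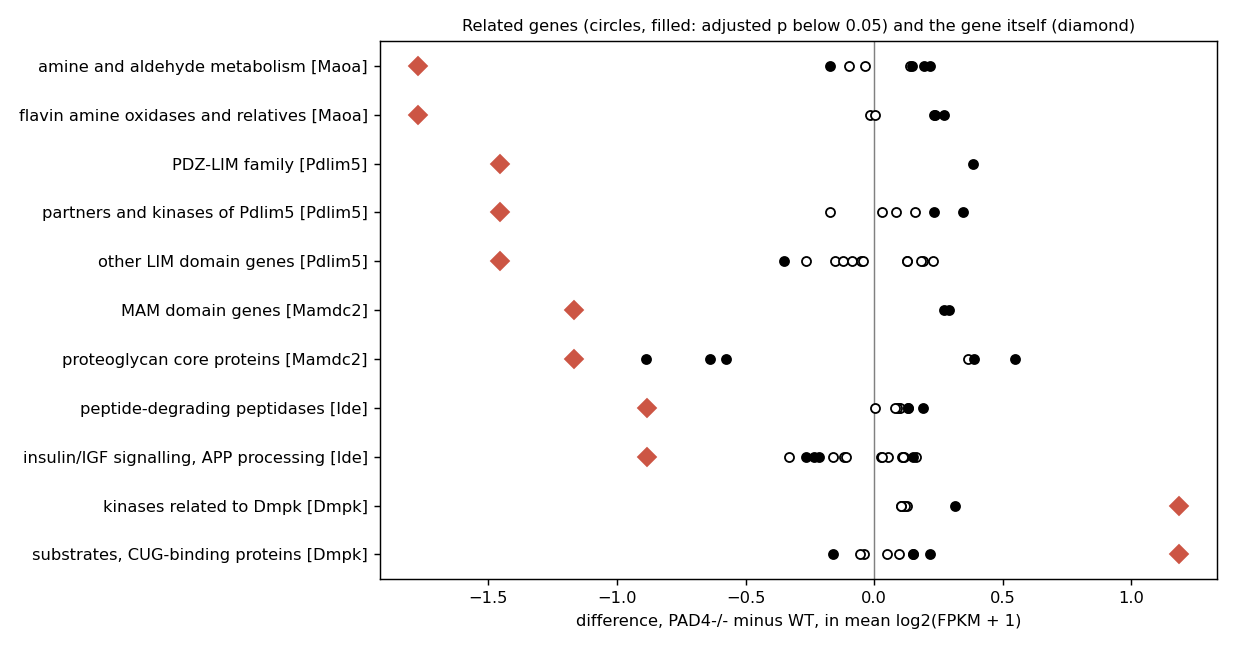
Difference in mean log2(FPKM + 1), PAD4-/- minus WT, of tested genes in each list related to a member (circles, filled where the adjusted p is below 0.05), with the member named in brackets as a red diamond. In every list the diamond lies outside the range of the circles; the nearest circle to a diamond is Gpc1 at -0.89 beside Mamdc2 at -1.17.

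By the root mean square difference between profiles over the 8 libraries, in log2(FPKM + 1) centred on each gene's mean, the lower members differed by 0.16 to 0.45 in pairs. The value was 0.20 between Maoa and Pdlim5, 0.17 between Pdlim5 and Mamdc2 and 0.16 between Mamdc2 and Ide, but 0.30 between Pdlim5 and Ide, 0.33 between Maoa and Mamdc2 and 0.45 between Maoa and Ide. The nearness of Mamdc2 and Ide holds with 1 FPKM added, since with 0.1 FPKM added their differences between genotypes were -1.77 and -0.92. Other genes were ranked the same way, with predicted and clone gene names left out. Those most like Maoa and Pdlim5 were Cd200, Adam19 and Mmp12, at 0.39, 0.43 and 0.44 for Maoa and 0.23, 0.26 and 0.28 for Pdlim5. For scale, the root mean square of the centred profile itself was 0.89 for Maoa and 0.73 for Pdlim5. Ratios of Cd200, Adam19 and Mmp12 were 0.417, 0.263 and 0.456, against 0.260 for Maoa and 0.344 for Pdlim5. Mmp12 was lower in the second knockout pair (640.31 and 611.63 FPKM) than in the first (973.56 and 925.19 FPKM), unlike Maoa. The genes most like Mamdc2 were Adam19, Cd200 and Arhgef18, at 0.11, 0.14 and 0.15. With 0.1 FPKM added, a choice made after the data were seen, Mmp12 gave way to Arhgef18 for both Maoa and Pdlim5, and Arhgef18 was the nearest to Maoa, at 0.17, while Mamdc2 had the same 3 genes. Arhgef18, a guanine nucleotide exchange factor gene, was at 1.58, 1.8, 1.6 and 1.75 FPKM in wild type and at 0.37, 0.43, 0.45 and 0.37 FPKM in the knockout, with no overlap.

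For Ide the nearest genes were Arhgef18, Cd24a and Adam19, at 0.06, 0.10 and 0.10, although their ratios of 0.241, 0.465 and 0.263 lie below that of Ide, because adding 1 FPKM compresses low genes. With 0.1 FPKM added, none of these 3 was among the nearest, and Idi1, Eprs and Gpc1 took their place, at ratios of 0.606, 0.623 and 0.510. Eprs, a tRNA synthetase gene, went from 67.8 ± 2.07 to 42.3 ± 0.759 FPKM (SD, n = 4 each). For Dmpk the nearest were Ggt5, Itgal and Fnbp1l, each at 0.15 to 0.16, and with 0.1 FPKM added they were Inpp4b, Ggt5 and Gpr84. Ggt5, a glutamyl transferase gene, was at 3.53, 2.85, 2.78 and 2.69 FPKM in wild type and at 5.24, 5.79, 7.79 and 8.27 FPKM in the knockout.

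Macrophage markers were abundant. Of 12 macrophage markers 9 were listed, all tested, and their summed level was 17830 to 18430 FPKM in wild type and 19440 to 25330 FPKM in the knockout, with 7 called higher and none lower. Summed levels were at most 1.13 FPKM for neutrophil markers (1 of 10 listed) and 0.84 FPKM for fibroblast markers (2 of 6 listed). Of 8 dendritic cell markers 4 were listed, at 23.2 to 25.9 FPKM in wild type and 24.7 to 29.4 FPKM in the knockout, nearly all of it Irf8, with Ccr7, Xcr1 and Zbtb46 each below a mean of 1 FPKM. Of 6 osteoclast markers 4 were listed, at 25.2 to 27.6 FPKM in wild type and 18.3 to 21.1 FPKM in the knockout, where Ctsk and Acp5 fell, to ratios of 0.448 and 0.710. The other listed osteoclast markers, Nfatc1 and Dcstamp, had ratios of 1.17 (limma adjusted p = 0.0753) and 1.43 (below the filter). The higher macrophage markers and the lower Ctsk and Acp5 move with the same contrast as the members, and their part in the members' differences was not tested. No marker from the lists for muscle, erythroid, mast, B, T and NK cells was among the listed genes, so these lists gave no level.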

How the data were processed

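RNA-seq libraries followed a BGISEQ protocol from Trizol-extracted total RNA, per the labels' protocols. FPKM values per gene were deposited by the authors, rounded to 2 decimals; per the submitters' processing notes they used HISAT, Bowtie2, RSEM and GRCm38, whose versions the notes do not give. The authors also deposited a log2 fold change and a q-value per gene, by a test the sources do not name. Depth is unknown, since FPKM holds no counts, so no counting interval is given; listed FPKM summed to 381573 to 403848 per library.

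Here groups came from titles. Of 6287 listed genes, the 5674 with a mean of at least 1 FPKM were tested two-sided with limma (version 3.58.1, R 4.3.3). The fit used log2(FPKM + 1) and empirical Bayes, trended on mean level and robust, and Benjamini-Hochberg adjustment; a call is an adjusted p below 0.05. The fit was tested on simulated data. RefSeq (GRCm38.p6) and GENCODE M21 gave positions, and 6271 genes matched RefSeq by ID. Members, gene lists and the naming rule were chosen with earlier results of these data known. The rule took called list members with the smallest adjusted p (up to 6 a list) and nearest relatives of the members. It also took, within 500 kb, called genes and the nearest tested gene on each side, and the 3 most alike profiles. Predicted and clone names (Gm with digits, Rik, LOC) were left out of those profiles. Actn1, Insr, Mbnl1, Pitrm1, Tnks2, Six5, Gbp2, Eprs and the genes named as most alike with 0.1 FPKM added lie outside the rule and were named after their values were seen. Alternatives were another pseudocount, filters, scalings, empirical Bayes settings, a replicate block and left-out libraries. A called gene of the lists is counted but not reported here by name.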

Additional observations from a re-analysis of the deposited data

Results flagged for a closer look

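In 4 of 90 groups of 4 libraries examined (members and named tested genes), 1 library stood apart, with a gap to its nearest neighbour above Dixon's 95% critical value for the group's range, which chance gives in about 1 group in 20. Pdlim5 was at 27.22 FPKM in wild-type replicate 4, against 32.62 to 33.42 in the others. Ide was at 18.7 FPKM in knockout replicate 3, against 17.37 to 17.57, and Dmpk at 5.56 FPKM in wild-type replicate 1, against 4.8 to 4.87. Lnpep was at 18.81 FPKM in wild-type replicate 4, against 20.74 to 20.9. Without the library in question, the differences in mean log2(FPKM + 1) were -1.52 for Pdlim5, -0.91 for Ide and 1.23 for Dmpk, against -1.45, -0.89 and 1.19 with all libraries.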

How the results depend on the processing

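Each member kept its direction in every alternative that tested it, 16 for Maoa, Pdlim5, Ide and Dmpk and 15 for Mamdc2, which was below the filter at a mean of 5 FPKM. Adding 0.1 FPKM gave -1.93 for Maoa and -1.77 for Mamdc2, and scaling libraries to an equal FPKM sum gave -1.49 for Mamdc2. Median-of-ratios scaling gave -0.97 for Ide, with 524 genes higher and 629 lower against 1195 and 375 (45.4% and 76.1% of calls higher), 8 listed genes higher against 19, and 2 neighbouring genes higher against 6. Without knockout replicates 3 and 4 Maoa was at -1.91, 662 genes were higher, and 1 neighbouring gene was higher and 2 lower. Leaving out 1 library gave -1.83 to -1.72 for Maoa, -1.52 to -1.43 for Pdlim5, -1.21 to -1.13 for Mamdc2, -0.91 to -0.88 for Ide and 1.11 to 1.26 for Dmpk. It gave 647 to 1682 genes higher and 235 to 544 lower, 12 to 29 listed genes higher, and 0 to 9 neighbouring genes higher. With replicate numbers as a block, 1031 genes were higher and 334 lower, and 4 of 35 called named genes lost their call. Same-numbered libraries did not deviate together (correlations of -0.14 to -0.03), so the numbers were not taken as pairs. Of those 35 genes, 16 kept their call in all alternatives run. The causes were not tested, and the unknown depth limits Mamdc2 most.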
